A study of Mus musculus with 9 samples.

Results

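p53 and its feedback regulators were followed as 8 genes chosen by name and function: Trp53, Mdm2, Mdm4, Ppm1d, Ccng1, Rchy1, Usp7 and Trp53bp1. All 8 were found among the 37310 gene rows of the count files, and all 8 passed the filter on low counts that left 16224 genes for testing. RNA was sequenced from mouse E14 embryonic stem (ES) cells, stem cells of the early embryo, grown without feeder cells on gelatin with serum and LIF. The libraries labelled Zbtb11 KO (3) came from Zbtb11 lox/lox cells that carry ERt2-Cre, a recombinase switched on by 4-hydroxytamoxifen (4OHT), at Rosa26, and that were kept for 72 h with 250 nM 4OHT. The 4OHT control libraries (3) came from cells with Zbtb11 WT/WT and an unmodified Rosa26 WT locus, kept with the same dose for the same time. The EtOH control libraries (3) came from the Zbtb11 lox/lox, Rosa26 ERt2-Cre cells kept for 72 h with ethanol, the carrier. The comparison of the labelled KO with the EtOH control asks which transcripts differ after induced loss of Zbtb11, and the 4OHT control was added for effects of 4OHT that do not depend on Zbtb11. The 4OHT control differs from the EtOH control in its line as well as in the drug, and these cannot be told apart. Only the labelled KO had ERt2-Cre together with 4OHT, so effects of the switched-on recombinase and of Zbtb11 loss cannot be told apart either.

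p53, encoded by Trp53, is a transcription factor that is kept low in unstressed cells because Mdm2, a ubiquitin ligase, binds it and marks it for destruction. Mdm2 is itself a p53 target gene, so a rise in p53 activity is followed by more of its own inhibitor, and Mdm4, Ppm1d, Ccng1 and Rchy1 feed back on p53 through the same loop or beside it. p53 is regulated largely at the level of protein stability and modification, which RNA counts do not measure, and ES cells are known to hold abundant p53.

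The gene counts of a library totalled 16909139 to 23544893. Zbtb11 itself averaged 377 ± 8.47 CPM (read counts scaled to library size with TMM factors; SD, n = 3 in every group) in the labelled KO, 368 ± 9.31 CPM in the 4OHT control and 355 ± 6.70 CPM in the EtOH control. Its gene-level count was thus not lower in the labelled KO (log2 fold change against the EtOH control 0.09, SE 0.05, edgeR adjusted p = 0.17, 0.032 with a replicate block and 0.013 with library totals). The labels used here do not say which exons lie between the lox sites, so this count checks neither the deletion nor the labels, and the samples are called the labelled KO throughout. Reads that lay in no annotated feature made up 32.7% to 33.8% of reads in the labelled KO, 26.7% to 27.5% in the 4OHT control and 26.4% to 28.7% in the EtOH control. The part of this difference in the results given here was not tested.

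The labelled cell type was checked with markers. The 10 ES cell markers summed to 4289 to 4626 CPM in the labelled KO, 4584 to 5264 CPM in the 4OHT control and 4590 to 4871 CPM in the EtOH control. Pou5f1, a core pluripotency factor, averaged 686 ± 52.3, 811 ± 22.3 and 756 ± 9.55 CPM in the same order. Nanog averaged 600 ± 85.7, 455 ± 82.9 and 578 ± 48.4 CPM, and Sox2 477 ± 30.8, 470 ± 29.2 and 479 ± 15.6 CPM. The 7 endoderm markers summed to 18.9 to 22.3 CPM in the labelled KO, above the 9.46 to 11.2 CPM of the 4OHT control and the 11.0 to 17.2 CPM of the EtOH control, and 3 of the 5 that could be tested rose against the EtOH control (Gata4, Gata6 and Sox17). The 8 fibroblast or feeder markers summed to 21.1 to 21.8, 15.7 to 17.2 and 18.1 to 21.2 CPM, with Lum at 0 in every EtOH control library. The 7 mesoderm, 5 neuroectoderm and 6 trophoblast markers summed to 13.2 to 16.7, 144 to 165 and 67.2 to 70.5 CPM in the labelled KO, against 10.9 to 15.9, 168 to 192 and 40.0 to 60.4 CPM in the 4OHT control and 10.9 to 15.4, 146 to 174 and 69.7 to 77.8 CPM in the EtOH control. Most of the trophoblast sum was Tfap2c (62.7, 47.7 and 68.8 CPM in the labelled KO, 4OHT control and EtOH control). Most of the neuroectoderm sum was Tubb3 (104, 116 and 109 CPM in the same order). Against the EtOH control 2 of the 10 ES cell markers fell (Esrrb and Utf1), 1 of the 6 trophoblast markers rose (Krt7), and no tested fibroblast, mesoderm or neuroectoderm marker was called (4, 6 and 4 tested). Krt7 and Sox17 were low even in the labelled KO, at 1.79 and 0.74 CPM. In that comparison 13% of all genes tested rose and 14.2% fell. Against the 4OHT control, where 19.1% of all genes tested rose and 19.8% fell, 4 of 10 ES cell markers fell. There 4 of 5 endoderm, 4 of 6 trophoblast and 1 of 6 mesoderm markers rose. Of 4 fibroblast markers 2 rose and 1 fell, and of 4 neuroectoderm markers 1 rose and 2 fell. In bulk RNA, fewer cells of a type and less RNA per cell cannot be told apart, and the part of these minor cell types in the results was not tested.

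The promoters are shown because 4 of the members rose together in the labelled KO, described further on, while the gene for p53 did not. Each window holds the 250 bases before a gene's RefSeq start (assembly GRCm38.p6, whose coordinates differ from the mm9 build named in the submitters' processing notes), written 5′ to 3′ along the gene. Capitals mark a match to the p53 decamer consensus, the 10-base element of which a full p53 site holds a pair. It is named only, since it needs letters other than the plain bases.

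Mdm2 (chr10:117710759-117711008, - strand): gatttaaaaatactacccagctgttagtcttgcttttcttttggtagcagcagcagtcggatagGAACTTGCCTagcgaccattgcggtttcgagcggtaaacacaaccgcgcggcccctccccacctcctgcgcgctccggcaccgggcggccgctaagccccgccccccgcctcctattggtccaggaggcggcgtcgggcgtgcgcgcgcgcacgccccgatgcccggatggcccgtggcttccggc

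Ccng1 (chr11:40755287-40755536, - strand): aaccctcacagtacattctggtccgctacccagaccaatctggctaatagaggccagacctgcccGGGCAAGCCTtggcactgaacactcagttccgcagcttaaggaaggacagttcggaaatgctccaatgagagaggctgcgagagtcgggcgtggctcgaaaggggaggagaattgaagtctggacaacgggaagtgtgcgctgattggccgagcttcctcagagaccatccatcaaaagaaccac

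Ppm1d (chr11:85311004-85311253, + strand): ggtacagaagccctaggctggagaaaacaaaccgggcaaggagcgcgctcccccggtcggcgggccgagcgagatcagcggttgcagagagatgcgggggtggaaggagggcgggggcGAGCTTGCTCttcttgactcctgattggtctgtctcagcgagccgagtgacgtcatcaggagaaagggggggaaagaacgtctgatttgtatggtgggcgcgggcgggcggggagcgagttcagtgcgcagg

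Trp53 (chr11:69580109-69580358, + strand): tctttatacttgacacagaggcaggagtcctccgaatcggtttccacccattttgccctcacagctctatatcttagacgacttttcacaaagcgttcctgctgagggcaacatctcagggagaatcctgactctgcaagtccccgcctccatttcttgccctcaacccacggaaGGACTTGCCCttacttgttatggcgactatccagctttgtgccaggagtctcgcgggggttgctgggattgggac

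Mdm4, second start (chr1:133030588-133030837, - strand): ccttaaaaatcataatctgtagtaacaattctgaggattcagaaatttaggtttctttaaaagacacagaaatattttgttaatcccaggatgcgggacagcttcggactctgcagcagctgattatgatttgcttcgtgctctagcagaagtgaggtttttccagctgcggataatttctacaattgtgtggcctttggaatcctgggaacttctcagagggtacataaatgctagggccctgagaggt

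A decamer match stood in 5 of the 10 windows of the 8 members, 1 each for Mdm2, Ccng1, Ppm1d, Trp53 and the first listed of the 2 starts of Rchy1, against 7.13% of all 32851 mouse windows. On the - strand this first Rchy1 start (window chr5:91962557-91962806) lies downstream of the second, whose window (chr5:91963069-91963318) held no decamer match. The match began 186 bases before the start in Mdm2, 185 in Ccng1, 132 in Ppm1d, 75 in Trp53 and 90 in Rchy1. Neither window of Mdm4, which rose in the labelled KO, and neither Usp7 nor Trp53bp1 held one. Trp53 and, at its downstream start only, Rchy1 did, and neither of these 2 genes was called against the EtOH control. Of the 25 genes with a window in the list of p53 target genes described further on, 7 (28.0%) held a match, against 8.20% of the 27025 symbols with a window. The letters GGGCGG, the GC box, stood on either strand in 32.7% of all windows, and those of Mdm2, Ppm1d, Usp7, Trp53bp1 and the second Rchy1 start held at least 1. CCAAT stood in 33.8% of all windows, and 3 times in that of Ccng1, with 1 match each for Trp53, Mdm2, Ppm1d and Usp7. No decamer match overlapped either motif in the member windows. A match to letters is a description and shows no binding. The p53 element for which Mdm2 is best known lies in its first intron, outside the window.

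Against the EtOH control, RNA of 4 feedback regulators rose in the labelled KO, and neither Trp53 nor the feedback ligase Rchy1 passed the test. Mdm2 rose most, 3.15-fold, followed by Ccng1 at 1.96-fold, Mdm4 at 1.43-fold and Ppm1d at 1.38-fold, and Trp53bp1 fell to 0.863 of the control. Of the 8 genes, 4 rose and 1 fell, or 5 of 8 called at an adjusted p under 0.05, beside 27.2% of all genes tested (13% rose and 14.2% fell). In the comparison with the 4OHT control, 5 of 8 rose and none fell, beside 38.9% of all genes (19.1% rose and 19.8% fell). Between the 4OHT control and the EtOH control, 0 of 8 were called, beside 18.4% of all genes (9.66% rose and 8.75% fell), where 2987 genes were called by edgeR and 5014 had an unadjusted p under 0.05. Of the 8 members, 2 had an unadjusted p under 0.05 there (Mdm4 and Trp53bp1), and DESeq2 called 0. The replicate numbers were taken to pair the libraries, and with the number as a block Mdm4 and Trp53bp1 were lower in the 4OHT control than in the EtOH control (edgeR adjusted p = 0.002 and 0.00066). The 2 comparisons of the labelled KO share its libraries, and the comparisons against the EtOH control share those controls, so they are not independent. Scaled to library totals in place of TMM, 66.5% of the genes called against the EtOH control were rises, against 47.8% in the main scaling, and 64.4% against 49.1% for the 4OHT control.

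**Figure D1:**
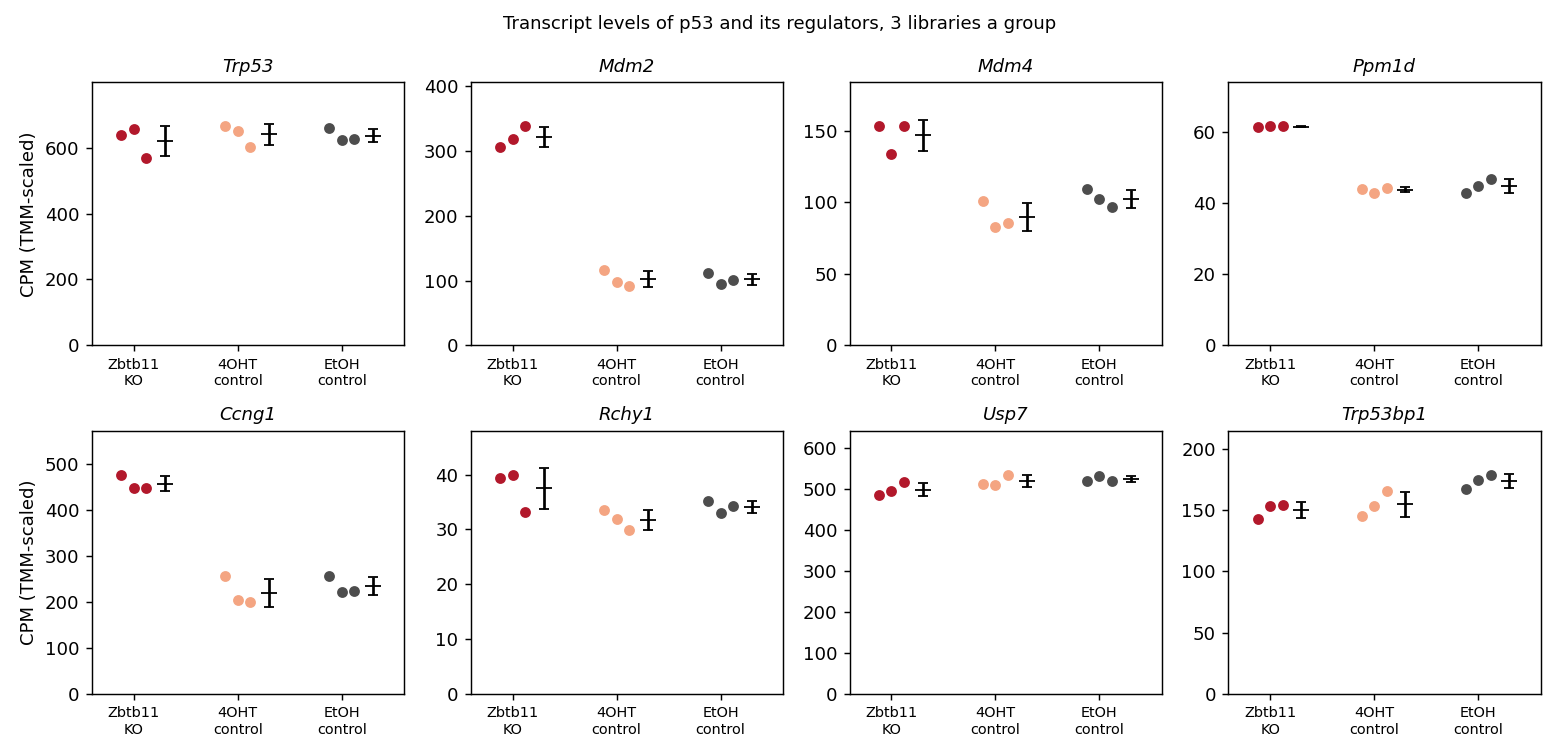
CPM (TMM-scaled counts) of each of the 8 genes in each library, with points for single libraries and lines for the group mean and SD (n = 3), for the labelled Zbtb11 KO, the 4OHT control and the EtOH control. The labelled KO points of Mdm2 (307 to 338 CPM), Mdm4, Ppm1d and Ccng1 lie above every control point, while 2 of the 3 for Trp53 (568 to 656 CPM) lie among the control points and the lowest lies below them.

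Trp53, the gene for p53 (ENSMUSG00000059552.6), had 638, 656 and 568 CPM in the labelled KO, 665, 652 and 604 CPM in the 4OHT control and 660, 623 and 627 CPM in the EtOH control. The groups overlapped, although replicate 3 of the labelled KO lay below every control library. The log2 fold change was -0.04 (SE 0.06, 95% interval -0.16 to 0.09, edgeR adjusted p = 0.67) against the EtOH control and -0.05 (interval -0.17 to 0.08, adjusted p = 0.57) against the 4OHT control. These intervals leave room for a change of up to 0.17 on the log2 scale in either comparison. Without replicate 3 of the labelled KO the sign turned (0.02 and 0.01), as it did with library totals (0.03 and 0.04). A processed copy, Trp53-ps, held 0 to 2 counts in any library.

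Mdm2, the ubiquitin ligase that inhibits p53 (ENSMUSG00000020184.8), had 307, 319 and 338 CPM in the labelled KO, 116, 98.2 and 92.1 CPM in the 4OHT control and 111, 94.8 and 100.2 CPM in the EtOH control. Every labelled KO library lay far above every control library, and the control groups overlapped each other. The log2 fold change was 1.65 (SE 0.08, interval 1.48 to 1.83, edgeR adjusted p = 1.6e-09) against the EtOH control and 1.66 (interval 1.48 to 1.83, adjusted p = 1.1e-09) against the 4OHT control. Of all genes tested, 1.21% had a larger change in either direction against the EtOH control. For the other members that rose, this share was 4.89% (Ccng1), 16.4% (Mdm4) and 19.6% (Ppm1d). The controls themselves differed by -0.00 (interval -0.18 to 0.17, adjusted p = 1), on 1672 to 2448 reads per library.

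Mdm4, a relative of Mdm2 that binds p53 and blocks its activity without strong ligase activity of its own (ENSMUSG00000054387.6), had 153, 134 and 153 CPM in the labelled KO, 101, 83.0 and 85.6 CPM in the 4OHT control and 109, 103 and 96.6 CPM in the EtOH control. The labelled KO libraries were higher than all control libraries, and the controls overlapped each other. Mdm4 rose by 0.52 on the log2 scale against the EtOH control (SE 0.08, edgeR adjusted p = 2e-04) and by 0.71 against the 4OHT control (adjusted p = 4.8e-06). The 4OHT control stood 0.19 below the EtOH control (log2 fold change -0.19, interval -0.36 to -0.03, adjusted p = 0.1). This difference passed the test without replicate 1 of the 4OHT control (adjusted p = 0.013) and without the filter on low counts (0.028). A processed copy, Mdm4-ps, held 0 to 2 counts in any library.

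Ppm1d, a phosphatase (Wip1) that removes activating phosphates from p53 and its kinases (ENSMUSG00000020525.11), had 61.4, 61.7 and 61.8 CPM in the labelled KO, 44.2, 43.0 and 44.5 CPM in the 4OHT control and 42.9, 44.8 and 46.8 CPM in the EtOH control. The labelled KO libraries were nearly equal and above every control library. The rise was 0.46 against the EtOH control (SE 0.06, interval 0.34 to 0.58, edgeR adjusted p = 2e-05) and 0.49 against the 4OHT control (adjusted p = 5.2e-06), both on the log2 scale. Their coefficient of variation of CPM, 0.322%, was below the 2.77% that counting error alone gives on average for 1188 to 1447 reads per library, so it is not a measure of how little the gene varies.

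Ccng1, cyclin G1, a p53 target whose product binds protein phosphatase 2A and acts on Mdm2 (ENSMUSG00000020326.7), had 477, 449 and 447 CPM in the labelled KO, 256, 205 and 200.2 CPM in the 4OHT control and 257, 221 and 225 CPM in the EtOH control. Every labelled KO library lay above every control library. Ccng1 rose by 0.97 on the log2 scale against the EtOH control (SE 0.09, interval 0.78 to 1.15, edgeR adjusted p = 4.2e-06) and by 1.06 against the 4OHT control (adjusted p = 9.2e-07). Replicate 1 was the highest library of each group, by 0.06 to 0.22 on the log2 scale above its group mean. Without replicate 1 of the 4OHT control, the difference between the controls was -0.21 and passed the test (adjusted p = 0.042), against -0.09 and 0.54 with all libraries.

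Rchy1 (Pirh2), a further ubiquitin ligase for p53 that is described as a p53 target (ENSMUSG00000029397.9), had 39.3, 40.0 and 33.1 CPM in the labelled KO, 33.5, 31.8 and 29.8 CPM in the 4OHT control and 35.1, 32.9 and 34.2 CPM in the EtOH control. Replicates 1 and 2 of the labelled KO stood above all control libraries and replicate 3 among them. The log2 fold change of 0.14 against the EtOH control was not called (SE 0.08, interval -0.03 to 0.30, edgeR adjusted p = 0.2), and it was 0.21 (adjusted p = 0.044) without replicate 3 of the labelled KO. Against the 4OHT control Rchy1 rose by 0.24 (SE 0.08, adjusted p = 0.022), although the ranges overlapped. That call was lost without replicate 1 or 2 of the labelled KO (adjusted p = 0.096 and 0.1) or replicate 2 or 3 of the 4OHT control (0.052 and 0.096). In the GENCODE annotation 18.0% of its exon bases are shared with Thap6 on the other strand (whether counting used strand is not stated).

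Usp7, a deubiquitinase that stabilises both Mdm2 and p53 (ENSMUSG00000022710.10), had 485, 494 and 516 CPM in the labelled KO, 513, 509 and 535 CPM in the 4OHT control and 518, 532 and 520.3 CPM in the EtOH control. The labelled KO libraries lay below all EtOH control libraries and overlapped the 4OHT control. The log2 fold change of -0.07 against the EtOH control was not called (SE 0.05, interval -0.17 to 0.03, edgeR adjusted p = 0.26), nor was that of -0.06 against the 4OHT control (interval -0.15 to 0.04, adjusted p = 0.33).

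Trp53bp1 (53BP1), a scaffold of the DNA damage response that binds p53 and the deubiquitinase Usp28 (ENSMUSG00000043909.9), had 142, 153 and 154 CPM in the labelled KO, 145, 153 and 165 CPM in the 4OHT control and 167, 175 and 179 CPM in the EtOH control. Both 4OHT-treated groups lay below every EtOH control library and overlapped each other. Trp53bp1 fell by 0.21 on the log2 scale in the labelled KO against the EtOH control (SE 0.06, edgeR adjusted p = 0.012), while against the 4OHT control its log2 fold change was -0.05 (interval -0.17 to 0.08, adjusted p = 0.55). The fall was not called with library totals (-0.14, adjusted p = 0.058), without replicate 3 of the EtOH control (-0.19, 0.05) or without replicate 1 of the labelled KO (-0.19, 0.054). In the 4OHT control against the EtOH control the log2 fold change was -0.17 (interval -0.29 to -0.04, adjusted p = 0.057), and 4 alternatives in addition to the block called it. They were library totals (adjusted p = 0.029), a fit of the 2 groups alone (0.046) and fits without replicate 1 of the labelled KO (0.048) or replicate 3 of the 4OHT control (0.026). Tubgcp4, on the other strand, shares 15.0% of the exon bases of Trp53bp1 and averaged 36.7 ± 4.55 CPM in the labelled KO, 35.4 ± 1.78 CPM in the 4OHT control and 34.3 ± 0.722 CPM in the EtOH control.

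**Figure D2:**
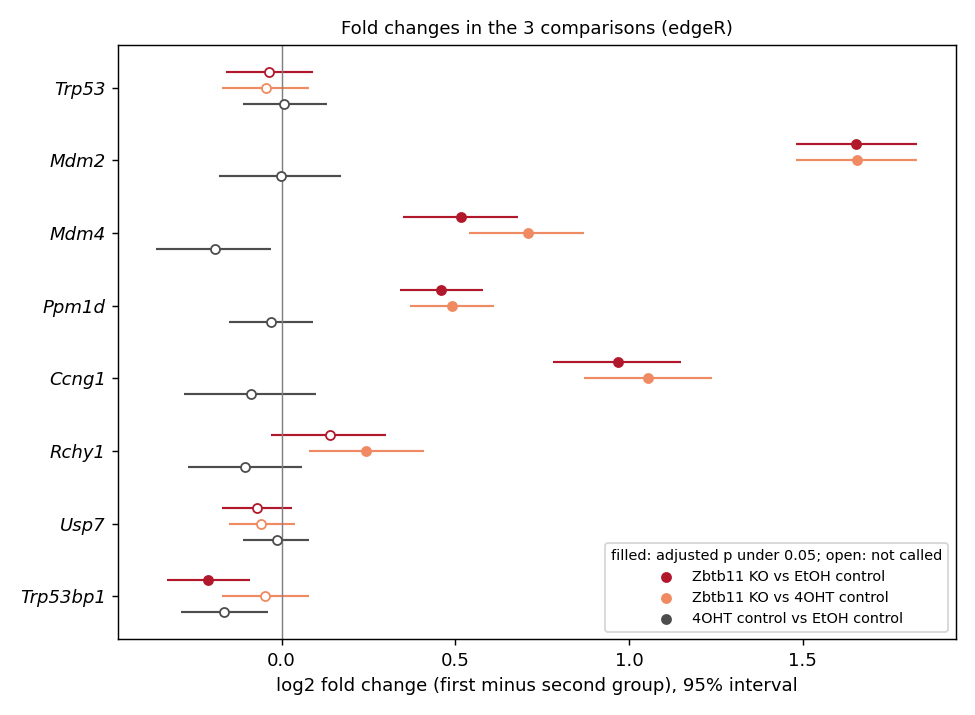
Log2 fold changes of the 8 genes in the 3 comparisons, with 95% intervals from the edgeR fit, filled points for those called and open points for the others. Mdm2 lies at 1.65 and 1.66 in both comparisons of the labelled KO and at -0.00 between the controls.

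The ranges of the labelled KO and the EtOH control did not overlap in 6 of the 8 genes (4 higher, and Usp7 and Trp53bp1 lower), beside 41.9% of all genes tested (21.3% higher and 20.5% lower). They did not overlap with the 4OHT control in 4 of 8, all higher, beside 48.2% (24.5% higher and 23.7% lower). The 2 controls did not overlap in 1 of 8, Trp53bp1, beside 35.1% (18.1% higher and 17% lower).

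Ordered by level per length (CPM per kb of merged exons in GENCODE M21), the genes of the labelled KO ran from Trp53 at 153 through Ccng1 at 130.3, Usp7 at 64.2, Mdm2 at 63.2, Ppm1d at 19.4, Trp53bp1 at 10.6, Rchy1 at 9.94 and Mdm4 at 9.93. In the EtOH control the same quantity was 157 for Trp53, 67.4 for Usp7, 66.7 for Ccng1, 20.1 for Mdm2, 14.1 for Ppm1d, 12.3 for Trp53bp1, 9.04 for Rchy1 and 6.94 for Mdm4. The 4OHT control kept the order of the EtOH control, with 158 for Trp53, 66.8 for Usp7, 62.7 for Ccng1, 20.1 for Mdm2, 13.8 for Ppm1d, 10.9 for Trp53bp1, 8.41 for Rchy1 and 6.07 for Mdm4. Trp53 was thus highest in each group. In the labelled KO, Ccng1 stood apart from Usp7, from which it did not differ beyond the spread in the controls, and neither Mdm2 and Usp7 nor Trp53bp1, Rchy1 and Mdm4 differed among themselves beyond the spread. The order of genes depends on the merged exon length used (14.8 kb for Mdm4 and 4.045 kb for Trp53), which may not be that of the submitters' annotation. By CPM alone Trp53 was also highest in each group, but Rchy1 and not Mdm4 was lowest. Between groups, the mean CPM of Mdm4, Ppm1d, Ccng1 and Rchy1 was highest in the labelled KO and lowest in the 4OHT control, but the ranges of the controls overlapped in all 4, and the means of Mdm2 in both controls were 102 CPM.

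Ratios of 2 counts within a library do not depend on how libraries are scaled. The Mdm2 count was 0.481, 0.487 and 0.596 of the Trp53 count in the labelled KO, 0.174, 0.151 and 0.153 in the 4OHT control and 0.169, 0.152 and 0.160 in the EtOH control. The labelled KO values all lay above the others, and on the log2 scale the ratio was 1.70 higher than in the EtOH control and 1.71 higher than in the 4OHT control (exact two-sided permutation p = 0.1 for each, the smallest that 3 against 3 libraries allow). Between the controls it differed by -0.01 (exact permutation p = 0.9).

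The balance of the inhibitors also differed, since Mdm2 rose more than Mdm4. Mdm4 counts per Mdm2 count were 0.499, 0.420 and 0.453 in the labelled KO, 0.872, 0.845 and 0.930 in the 4OHT control and 0.980, 1.08 and 0.964 in the EtOH control. The 3 groups did not overlap in this ratio, with log2 differences of -1.14 from the EtOH control, -0.95 from the 4OHT control and -0.19 between the 4OHT control and the EtOH control (exact permutation p = 0.1 for each, the smallest possible). Usp7 counts per Mdm2 count were 1.58, 1.55 and 1.53 in the labelled KO, 4.43, 5.18 and 5.81 in the 4OHT control and 4.65, 5.61 and 5.20 in the EtOH control. That is a log2 difference of -1.73 from the EtOH control and -1.72 from the 4OHT control (exact permutation p = 0.1 each).

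Per Trp53 count, Ppm1d stood at 0.0962, 0.0942 and 0.109 in the labelled KO, 0.0664, 0.0660 and 0.0737 in the 4OHT control and 0.0650, 0.0719 and 0.0747 in the EtOH control. The differences were 0.50 from the EtOH control and 0.54 from the 4OHT control on the log2 scale. For Ccng1 the values were 0.748, 0.685 and 0.788 in the labelled KO, 0.384, 0.314 and 0.332 in the 4OHT control and 0.389, 0.355 and 0.358 in the EtOH control, or log2 differences of 1.01 and 1.11. In both ratios no control library reached the lowest labelled KO library (exact permutation p = 0.1 for all 4 differences). In total 15 ratio comparisons were made, none of which could pass 0.05 in this design, and so none was adjusted.

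**Figure D3:**
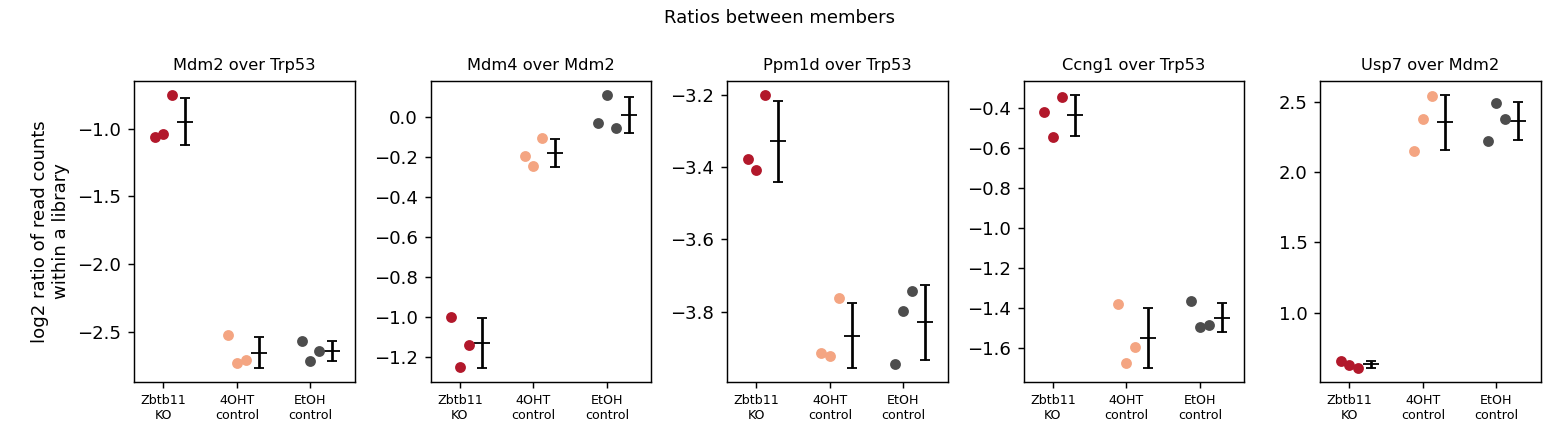
Ratios of the counts of 2 genes within each library on a log2 axis, with a point per library and lines for the group mean and SD (n = 3), for the labelled Zbtb11 KO, the 4OHT control and the EtOH control. Mdm2 over Trp53 and Ccng1 over Trp53 are higher, and Mdm4 over Mdm2 and Usp7 over Mdm2 lower, in each labelled KO library than in any control library.

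Spread between replicates differed among the members. The within-group SD of log2 CPM was 0.04 for Usp7 and Ppm1d, 0.07 for Trp53bp1, 0.08 for Trp53, 0.10 for Rchy1, 0.12 for Mdm4, 0.13 for Mdm2 and 0.14 for Ccng1. Of all genes tested, 2.32% had a smaller spread than Usp7 and 50.1% a smaller one than Ccng1. Trp53bp1 was below its group mean in replicate 1 of all 3 groups (by 0.05 to 0.09) and above it in replicate 3 (by 0.04 to 0.10). Mdm4, like Ccng1, was above it in replicate 1 of every group (by 0.06 to 0.17).

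The genes whose pattern over the 9 libraries was nearest to that of Mdm2, among 10876 genes with a symbol and a mean log2 CPM of at least 2, were Cyyr1, Ddit4l, Phlda3 and Mmrn2. The root mean square difference of centred log2 CPM was 0.10, 0.10, 0.13 and 0.14, and their log2 fold changes against the EtOH control were 1.61, 1.69, 1.42 and 1.46. Those nearest to Ccng1 were Wdr35, Susd6, Eda2r and Map3k20 (differences of 0.06, 0.07, 0.07 and 0.09, with log2 fold changes of 0.87, 0.88, 0.94 and 1.07). Nearest to Ppm1d were March5, Ints12, Timm29 and Zfp84 (differences of 0.04, 0.04, 0.04 and 0.05, with log2 fold changes of 0.44, 0.41, 0.45 and 0.47). The likeness was measured on the same libraries that gave the fold changes.

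Beyond the 8 genes, other genes known to be activated by p53 rose in the labelled KO. Of 33 known p53 target genes outside the members, 27 rose and none fell against the EtOH control (background 13% and 14.2%), with a median log2 fold change of 0.64 beside 0.01 over all genes tested. Against the 4OHT control 27 rose and none fell (background 19.1% and 19.8%), with a median of 0.77 beside 0.02. In the 4OHT control 2 rose and 6 fell against the EtOH control (background 9.66% and 8.75%), with a median of -0.08 beside 0.00. There the rises numbered 4 with the replicate block and also without replicate 1 of the EtOH control or without the filter, and the falls 3 without replicate 3 of the EtOH control. The summed CPM of the list was 2662 to 2691 in the labelled KO, 1573 to 1723 in the 4OHT control and 1662 to 1766 in the EtOH control. The list was written with earlier results of these libraries known and is not independent evidence of its direction.

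By smallest p the list was led by Eda2r, a receptor of the TNF receptor family, which averaged 116 ± 3.71 CPM in the labelled KO and 60.0 ± 2.75 CPM in the EtOH control (log2 fold change 0.94, SE 0.06, edgeR adjusted p = 1e-08). Phlda3, an inhibitor of Akt signalling, averaged 58.9 ± 0.752 and 22.1 ± 3.09 CPM in the same order (log2 fold change 1.42). Ephx1, an epoxide hydrolase, had 30.0 ± 2.07 and 11.6 ± 1.101 CPM (log2 fold change 1.37). Cdkn1a, the cell cycle inhibitor p21, had 53.9 ± 4.74 CPM in the labelled KO and 28.7 ± 2.38 CPM in the EtOH control (log2 fold change 0.91, SE 0.09, adjusted p = 1.1e-06). The 6 targets that were not called against the EtOH control, which are named because they are the exceptions, were Bax, Xpc, Ddb2, Rrm2b, Tigar and Dram1. Against the 4OHT control the 6 not called were Bax, Ddb2, Dram1, Sesn1, Ei24 and Dcxr, so the 27 rises were not all the same genes. Between the controls, Tigar was lower in the 4OHT control (log2 fold change -0.75, edgeR adjusted p = 1.1e-06). Sesn1 (0.48) and Ei24 (0.42) were higher there. Of the other p53 family genes, Trp73 averaged 25.9 ± 2.86 CPM in the labelled KO and 8.45 ± 0.788 CPM in the EtOH control (log2 fold change 1.62, SE 0.11, adjusted p = 2.3e-08), and Trp63 did not pass the filter on low counts.

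**Figure D4:**
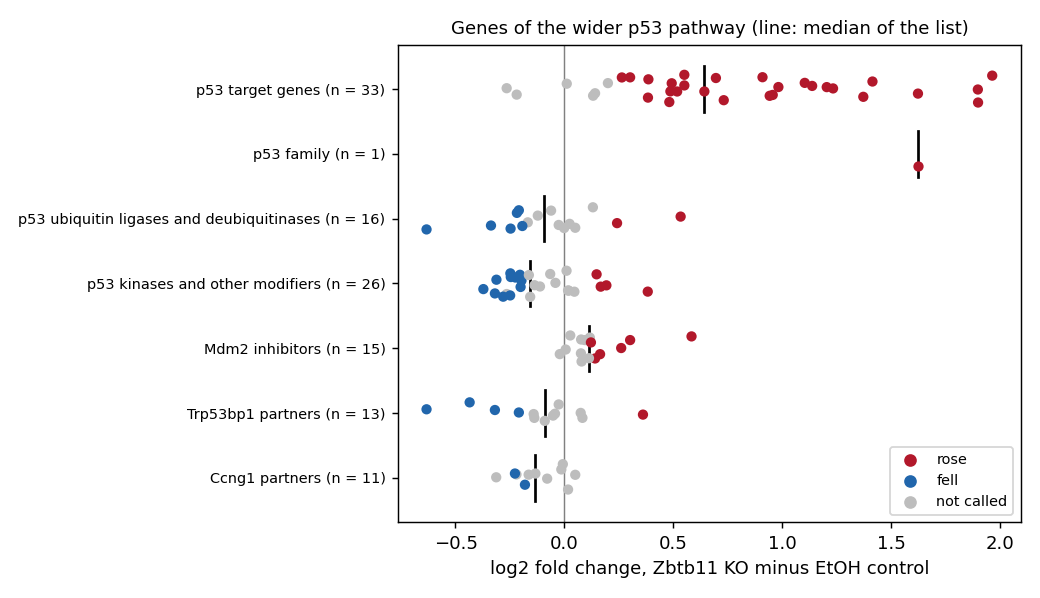
Log2 fold changes of the genes of each pathway list in the labelled Zbtb11 KO against the EtOH control, 1 point per gene, coloured by call (rose, fell or not called), with a line at the median of each list. The p53 target genes lie mostly above 0 (median 0.64), and the medians of the other lists, apart from Trp73, lie between -0.16 and 0.11.

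Of 16 other enzymes that add or remove ubiquitin on p53 or Mdm2, 2 rose and 6 fell against the EtOH control (background 13% and 14.2%), with a median log2 fold change of -0.09, and with library totals only 3 fell. Trim28, a cofactor of Mdm2 and of gene silencing, averaged 1956 ± 83.7 CPM in the labelled KO and 2470.0 ± 44.6 CPM in the EtOH control (log2 fold change -0.34, edgeR adjusted p = 5e-05). Usp28, the deubiquitinase that joins Trp53bp1 and p53, averaged 139 ± 19.3 CPM in the labelled KO and 216 ± 21.4 CPM in the EtOH control (log2 fold change -0.63, adjusted p = 0.0014). Otud5 (-0.25, adjusted p = 0.0024) and Usp10 (-0.19, adjusted p = 0.0098; 0.068 with library totals), both deubiquitinases of p53, also fell. Only 1 rise was counted without replicate 1 or 2 of the EtOH control or replicate 2 of the labelled KO. Against the 4OHT control 4 of these enzymes rose and 9 fell (background 19.1% and 19.8%). In the 4OHT control 4 rose and 1 fell against the EtOH control (background 9.66% and 8.75%).

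Among 26 kinases and other modifiers of p53, 11 fell and 4 rose against the EtOH control (background 14.2% and 13%; median -0.16). The 11 became 6 with library totals. The smallest p values were those of Prkdc, the catalytic subunit of DNA-dependent protein kinase (63.5 ± 4.91 CPM in the labelled KO and 82.1 ± 6.18 CPM in the EtOH control, log2 fold change -0.37, edgeR adjusted p = 0.0011), Daxx, a chaperone that bridges Mdm2 and Usp7 (-0.31, adjusted p = 0.0014), and Kmt5a, a methyltransferase of histone H4 and p53 (-0.32, adjusted p = 0.0015). Chek2, a checkpoint kinase, averaged 46.6 ± 5.94 CPM in the labelled KO, 38.9 ± 4.16 CPM in the 4OHT control and 56.0 ± 4.34 CPM in the EtOH control, so the labelled KO lay between the controls. Its log2 fold change was -0.27 against the EtOH control (adjusted p = 0.055; 0.00026 with the replicate block) and 0.26 against the 4OHT control (adjusted p = 0.051; 0.00065 with the block), and it fell in the 4OHT control against the EtOH control (-0.52, adjusted p = 0.0018). Of 16 alternatives, 9 called the difference from the EtOH control (adjusted p from 0.00026 to 0.2), 7 that from the 4OHT control (0.00065 to 0.2) and 16 that between the controls (2.4e-10 to 0.013). Single libraries decided both labelled KO calls: the difference from the EtOH control was called without replicate 1 of the EtOH control (adjusted p = 0.031), replicate 3 of the labelled KO (0.016) or replicate 2 or 3 of the 4OHT control (0.049 and 0.035), and that from the 4OHT control without replicate 1 of the EtOH control (0.045), replicate 1 of the labelled KO (0.0095) or replicate 3 of the 4OHT control (0.018). The 4 rises of the list became 0 without replicate 2 of the EtOH control, 1 without replicate 1 or 2 of the labelled KO or with DESeq2, and 2 without replicate 3 of either group, replicate 2 of the 4OHT control, the filter or TMM scaling (DESeq2-type size factors). Against the 4OHT control 11 of the 26 fell and 3 rose (background 19.8% and 19.1%). In the 4OHT control 3 fell and 5 rose against the EtOH control (background 8.75% and 9.66%). Hipk2 fell against the EtOH control (-0.25, edgeR adjusted p = 0.022) but rose against the 4OHT control (0.23, adjusted p = 0.026). Sirt1 rose against the EtOH control (0.19, adjusted p = 0.048) but fell against the 4OHT control (-0.23, adjusted p = 0.015).

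Genes whose products inhibit Mdm2, mostly ribosomal proteins, rose in 6 of 15 cases and fell in none (background 13% and 14.2%; median 0.11). With the replicate block 11 rose, where 6936 of all 16224 genes changed and 47.7% of those were rises. With library totals 12 did, where 4565 genes changed and 66.5% of those were rises. Only 2, 3 and 3 rose without replicate 2 of the EtOH control, replicate 3 of the EtOH control and replicate 2 of the labelled KO in turn. Against the 4OHT control 7 rose and 1 fell (background 19.1% and 19.8%), or 3 to 6 and 0 to 2 with a library left out. In the 4OHT control 2 rose and none fell against the EtOH control (background 9.66% and 8.75%). Rps7 averaged 470 ± 21.7 CPM in the labelled KO and 392 ± 4.36 CPM in the EtOH control (log2 fold change 0.26, edgeR adjusted p = 0.00089). Rps27l, itself a p53 target, rose by 0.30 on the log2 scale (adjusted p = 0.0014) and Rps25 by 0.16 (adjusted p = 0.014; 0.064 without replicate 2 of the EtOH control and 0.051 without replicate 2 of the labelled KO). Ribosomal protein genes have many near-identical pseudogenes, and how shared reads were counted is uncertain for them. Cdkn2a, whose product Arf sequesters Mdm2, stood at a low 3.71 ± 0.940 CPM in the labelled KO and 2.46 ± 0.341 CPM in the EtOH control. Its rise of 0.58 (SE 0.20, adjusted p = 0.039) was not called by DESeq2 (0.073) or without replicate 2 (0.17) or 3 (0.078) of the EtOH control or replicate 3 of the labelled KO (0.2).

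Of 13 tested partners of Trp53bp1 in DNA repair, 4 fell and 1 rose against the EtOH control (background 14.2% and 13%; median -0.09), and 5 fell and 1 rose against the 4OHT control (background 19.8% and 19.1%). Mdc1, a scaffold that brings it to DNA breaks, fell to 247 ± 12.2 CPM in the labelled KO, against 334 ± 17.8 CPM in the EtOH control (log2 fold change -0.44, SE 0.07, edgeR adjusted p = 0.00027), and Usp28 and Kmt5a, given above, are also on this list. Partners of Ccng1, subunits of protein phosphatase 2A and Gak, had 2 falls and no rise among 11 (background 14.2% and 13%; median -0.13). Gak, a kinase that binds cyclin G, fell by 0.23 (adjusted p = 0.0063; 0.053 with library totals), and Ppp2r1b, a scaffold subunit, fell by 0.18 (adjusted p = 0.03). The Ppp2r1b call was lost with library totals (adjusted p = 0.17), without replicate 2 or 3 of the EtOH control (0.065 and 0.13) and without replicate 1 or 3 of the labelled KO (0.066 and 0.1). For Ppp2r5b, a regulatory subunit, the change was -0.22 on the log2 scale (adjusted p = 0.067; 0.01 with the block and 0.025 without replicate 2 of the labelled KO). The 2 falls became 6 with the replicate block, 0 with library totals, 4 without replicate 2 of the labelled KO, and 1 without replicate 2 or 3 of the EtOH control or replicate 1 or 3 of the labelled KO. With the block 6936 of all genes tested changed, against 4417 in the main fit. Against the 4OHT control 6 of the Ccng1 partners fell and none rose (background 19.8% and 19.1%), or 4 to 6 falls with a library left out. In the 4OHT control 4 rose and none fell against the EtOH control (background 9.66% and 8.75%).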

How the data were processed

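Each library has 1 deposited file of unnormalized counts by Ensembl gene, with HTSeq's 5 closing rows, which name no gene and stayed out of totals and tests. Tools named without roles in the submitters' processing notes are STAR, HTSeq, edgeR, cutadapt, Bowtie 1.1.2, MACS2 and DiffBind, with the build mm9. Whether reads were counted by strand is not stated. Per the labels' protocols, ribosomal RNA was depleted and libraries are directional. Symbols from GENCODE M21 matched 32620 of 37310 gene rows, and rows without one held 3.92% of counts.

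All 9 libraries were fitted together with edgeR 4.0.16 (R 4.3.3, limma 3.58.1; TMM scaling, filterByExpr by group, robust quasi-likelihood F test, 6 residual degrees of freedom). Calls, and the words rose, fell and changed, rest on an adjusted p (Benjamini-Hochberg) under 0.05 over 16224 genes. The fit was tested on simulated data with changes of 0.5 and 1 on the log2 scale. For the labelled KO against the EtOH control it recovered 59 and 95 of 100, with 15 false calls. Against the 4OHT control it recovered 54 and 94 of 100, with 7 false calls. CPM are TMM-scaled counts, and level per length divides them by merged exon length. Ratios of counts were compared by exact permutation over libraries. DESeq2 1.42.0, other scalings and filters, a fit of 2 groups, a replicate block and leaving out each library were alternatives.

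The labels name no separate cultures behind the replicates, so the p-values reflect spread among libraries that may be technical only. Libraries with the same replicate number deviated together from their group means (correlations across genes from 0.11 to 0.31 in all 9 pairs), so the numbers were taken to pair the libraries. Every other pair had a negative correlation, but centring on group means pushes these down where the same-number pairs are positive, so they add no separate evidence. No 2 libraries held the same values (at least 22354 genes had unequal counts in any 2).

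The 8 members, the pathway and marker lists (154 of 156 written genes matched) and the tests were chosen with earlier results of these data known. The genes named are the members, Zbtb11, the 3 genes with the smallest p against the EtOH control in each pathway list, Cdkn1a, Cdkn2a, Chek2, Usp28 and Usp10, Pou5f1, Nanog and Sox2, and the 4 genes nearest in pattern to Mdm2, Ccng1 and Ppm1d. Other genes (other cell type markers, uncalled p53 targets, Trp63, Hipk2, Sirt1, and genes that overlap or copy a member) were named after their values were seen. Promoter windows and their coordinates are from RefSeq on GRCm38.p6, matched by symbol for all 8 members, and were searched on both strands.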

Additional observations from a re-analysis of the deposited data

Results flagged for a closer look

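Reads assigned to no annotated feature, which no comparison uses, made up 33.75%, 32.71% and 33.41% of the reads of labelled Zbtb11 KO replicates 1, 2 and 3. Each share lay above that of every control library, of which the highest held 28.67%. The part of these reads in the members' fold changes was not tested.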

How the results depend on the processing

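The rises of Mdm2, Mdm4, Ppm1d and Ccng1 were called against both controls in every alternative run. With each library left out in turn, 4 to 6 of the 8 members were called against the EtOH control, beside 3067 to 4559 of all 16224 genes tested in the main fit. Against the 4OHT control 4 to 5 members were called, beside 5011 to 6268 genes. With the replicate block, 6936 genes changed against the EtOH control (4417 without it) and 5323 in the 4OHT control against the EtOH control (2987 without it, and 1974 to 3069 with a library left out). In that last comparison no member was called in the main fit, beside 18.4% of all genes. With the block 2 of 8 members were called, beside 5323 of 16224 genes. It was 1 member with library totals, 1 without the filter and 1 in the fit of 2 groups, and 0 to 2 with a library left out. The block changed no other call of a member. Signs turned only for small differences. With library totals the log2 fold change of Trp53 was 0.034 against the EtOH control, 0.038 against the 4OHT control and -0.004 between controls, and against the 4OHT control that of Usp7 was 0.025 and that of Trp53bp1 0.036. Without labelled KO replicate 3, Trp53 was at 0.017 and 0.012 against the EtOH and 4OHT controls (lowest with a library left out -0.093 against the EtOH control), and without 4OHT control replicate 3 Trp53bp1 was at 0.003 against the 4OHT control (lowest -0.092). In the 4OHT control against the EtOH control, Trp53 reached -0.01, -0.003, -0.023 and -0.007 without EtOH replicate 2 or 3 or 4OHT replicate 1 or 2 (highest 0.046), Mdm2 0.064, 0.023 and 0.065 without EtOH replicate 1 or 4OHT replicate 2 or 3, and Ppm1d 0.001 without EtOH replicate 3 (lowest -0.063). There the log2 count ratio of Mdm2 over Trp53 ran from -0.079 to 0.025, of Ppm1d over Trp53 from -0.096 to 0.005 and of Usp7 over Mdm2 from -0.10 to 0.095 with a library left out. The paired count ratios with the replicate block kept their differences, with an exact p no lower than 0.25. The causes were not tested. With 3 libraries a group, the 95% intervals of the members' log2 fold changes extended by up to 0.19 on either side. The alternatives for Chek2 in the 2 comparisons that involve the 4OHT control were added after seeing the data.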
